A study of Mus musculus with 9 samples.

Results

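The transcripts described here are 10 genes that glucocorticoid hormone or FoxO transcription factors are known to induce. They are Fkbp5, Tsc22d3, Zbtb16, Klf9, Klf15, Sgk1, Pik3ip1, Fbxo32, Trim63 and Foxo1. They were chosen by symbol, and all 10 were found among the 13795 genes of a table of normalized gene counts. RNA had been sequenced from whole heart tissue of C57BL/6 mice after 8 weeks, in 5 samples that received the platinum anticancer drug oxaliplatin at 10 mg/kg, and in 4 samples given vehicle. The labels give no age or sex and carry no engineered allele for any group, and they do not say whether a sample came from 1 animal, so each p reflects spread among samples that may be partly technical. All 10 genes passed the filter on low values, a mean of at least 10 normalized counts.

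Glucocorticoids act through a receptor, the product of Nr3c1, that waits in the cytoplasm bound to Hsp90 and to a large immunophilin. The immunophilin encoded by Fkbp5 lowers the receptor's affinity for hormone, whereas that encoded by Fkbp4 favours its move to the nucleus, and Fkbp5 is itself induced by the active receptor. FoxO factors are held out of the nucleus when insulin, PI3K and Akt are active. Once released they induce Fbxo32 and Trim63, ubiquitin ligases of muscle protein breakdown, and in muscle several of these genes respond to both the receptor and FoxO.

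Start-site sequences show which of these genes carry a recognition motif close to the start of transcription. RefSeq windows on GRCm38.p6, each of 300 bases and reaching from 250 bases before a start to 50 after it, matched 8 members with 15 windows. Zbtb16 and Fbxo32 were not among them. The glucocorticoid receptor binds 2 facing arms, searched as the palindrome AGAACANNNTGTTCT, as its centre ACANNNTGT, which lies within it, and as the single arm AGAACA. FoxO proteins bind GTAAACA, and the clock proteins bind the E-box CACGTG. Both strands were searched for each motif. A match describes the letters in the window and does not show binding.

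The 250 bases before the start are given for 4 members, with the motif matches each is shown for in capitals. Fkbp5 is shown as the member with the largest fold change and for its E-box, Sgk1 for its receptor palindrome, Trim63 for its adjoining receptor and FoxO letters and Klf9 for its FoxO motif. They lie at chr17:28486150-28486399 on the minus strand for Fkbp5 and, on the plus strand, at chr10:21993640-21993889 for Sgk1, chr4:134314870-134315119 for Trim63 and chr19:23140976-23141225 for Klf9.
Fkbp5: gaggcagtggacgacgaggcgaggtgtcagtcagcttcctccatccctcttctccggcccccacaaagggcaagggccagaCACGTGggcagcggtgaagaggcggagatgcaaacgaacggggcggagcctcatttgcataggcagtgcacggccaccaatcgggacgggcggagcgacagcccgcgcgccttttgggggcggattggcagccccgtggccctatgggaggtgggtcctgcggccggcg
Sgk1: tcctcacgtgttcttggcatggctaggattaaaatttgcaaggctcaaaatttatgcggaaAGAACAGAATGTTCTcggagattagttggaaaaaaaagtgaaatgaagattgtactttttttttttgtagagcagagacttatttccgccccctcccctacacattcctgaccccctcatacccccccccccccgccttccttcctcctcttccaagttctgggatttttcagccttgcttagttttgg
Trim63: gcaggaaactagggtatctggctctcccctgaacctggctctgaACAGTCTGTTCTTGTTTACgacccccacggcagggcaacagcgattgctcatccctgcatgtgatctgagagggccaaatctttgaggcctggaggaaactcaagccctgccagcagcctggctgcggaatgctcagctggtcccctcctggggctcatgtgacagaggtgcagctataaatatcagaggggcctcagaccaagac
Klf9: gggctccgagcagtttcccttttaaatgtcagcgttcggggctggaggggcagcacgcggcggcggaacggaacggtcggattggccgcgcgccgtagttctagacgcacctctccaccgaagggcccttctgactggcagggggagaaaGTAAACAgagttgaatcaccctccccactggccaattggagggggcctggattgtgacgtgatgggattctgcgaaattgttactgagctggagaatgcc

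In Sgk1 the capitals mark a full receptor palindrome from position -189 to -175 before 1 of its 6 annotated starts. The same stretch holds an E-box from -246 to -241 and, overlapping it, a single arm from -242 to -237, both left in lower case. Of all 32851 windows, 3 (0.00913%) held that palindrome. In Trim63 they mark the receptor centre from -206 to -198, an arm on the opposite strand from -200 to -195 that overlaps it, and a FoxO motif, also on the opposite strand, from -194 to -188, which follows the arm with no base between. The centre was found in 6.85% of windows, the arm in 19.0% and the FoxO motif in 3.65%. Klf9 had a FoxO motif from -100 to -94, and Fkbp5 had an E-box from -169 to -164. The window of Klf15 held 3 E-boxes, where 7.15% of windows held any and 0.0883% held 3 or more. The windows of Foxo1 and Pik3ip1 held none of the 5 motifs, and those of Tsc22d3 held a single arm before 1 of its 3 starts. Counts per gene do not tell which start of a member was used. Fkbp5, on the minus strand, is annotated up to 28517527, upstream of its start at 28486149 used here. The bases before that outer end were not searched.

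**Figure D1:**
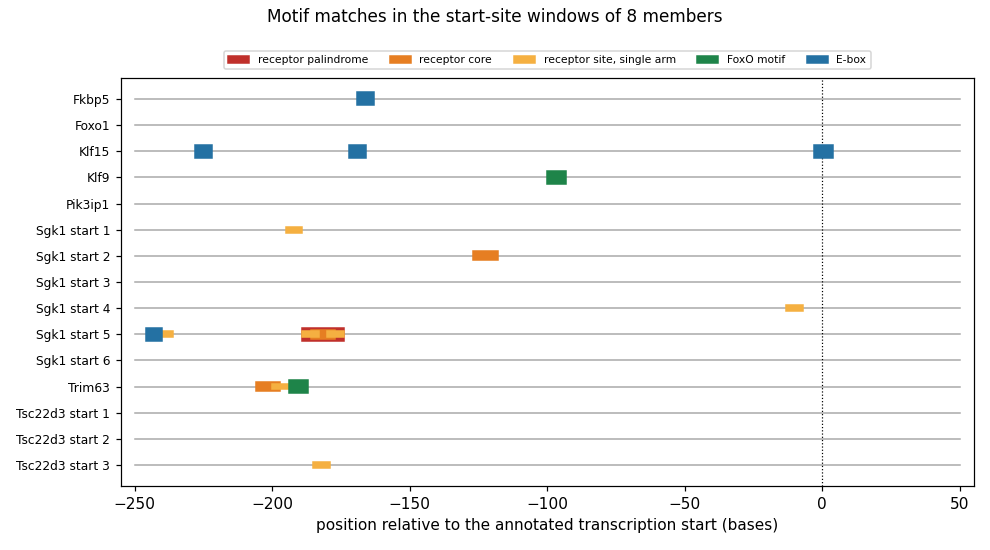
Motif matches in the 15 start-site windows of 8 members, by position in bases relative to the annotated start (dotted line). Sgk1 start 5 holds the receptor palindrome at -189 to -175, and in Trim63 a FoxO motif at -194 to -188 adjoins a receptor arm.

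The members did not move as a block. Fkbp5 and Tsc22d3 rose in oxaliplatin hearts, Pik3ip1 and Fbxo32 fell, and the other 6 did not pass. The test was limma on log2(normalized count + 1) over 13788 genes, two-sided, with a Benjamini-Hochberg adjusted p under 0.05, and fold changes are oxaliplatin over vehicle on that log2 scale. Over all genes tested 14.3% passed, 9.23% higher and 5.03% lower, beside 2 higher and 2 lower of 10 members, counts too small to read anything particular to these genes from. At an unadjusted p under 0.05 stood 6 members, where 28.8% of all genes did. The median log2 fold change was -0.04 over the members and -0.02 over all genes. Groups did not overlap for 1 member on the higher side and 2 on the lower, where 8.99% and 5.93% of all genes did the same.

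Estimated depth per sample was 28.5 M to 36.2 M reads. Markers of cardiomyocytes summed to 1219915 to 1570198 normalized counts in oxaliplatin samples and 1593185 to 1986332 in vehicle samples, and 5 of 12 passed lower. Endothelial markers summed to 41046 to 85243 in oxaliplatin and 33257 to 40563 in vehicle samples, and 3 of 10 passed higher. Adipocyte markers summed to 5834 to 13311 in oxaliplatin and 4471 to 5490 in vehicle samples, with 0 of 7 tested passing in limma (1 at an unadjusted p under 0.05, 0 with voom) and Plin1 and Ucp1 at 0 in some samples. Erythroid markers summed to 8343 to 359990 in oxaliplatin and 222518 to 572561 in vehicle samples, with 0 of 9 passing in limma (7 at an unadjusted p under 0.05, 1 with voom). Atrial markers summed to 29221 to 857965 in oxaliplatin and 14534 to 395617 in vehicle samples, with 0 of 10 passing in limma (0 at an unadjusted p under 0.05, 0 with voom). Of 4 T and B cell markers tested, Cd79a and Cd79b passed lower, with a list median of -1.34 and summed levels of 63.3 to 216 in oxaliplatin and 137 to 287 in vehicle samples. Smooth muscle and pericyte markers summed to 53644 to 61409 in oxaliplatin and 49004 to 65141 in vehicle samples, and 7 of 10 had an unadjusted p under 0.05 but Pdgfrb alone passed, higher. Fibroblast markers summed to 73897 to 167298 in oxaliplatin and 75432 to 109671 in vehicle samples, with Postn passing higher. Macrophage markers summed to 6408 to 16613 in oxaliplatin and 7812 to 9888 in vehicle samples, with Cd68 and Cd163 passing in opposite directions. A score for atrial markers, their mean log2 deviation, was 3.29 in oxaliplatin 2, 2.79 in oxaliplatin 4 and 2.45 in vehicle 1. It was 0.966 in oxaliplatin 3, just under the limit of 1, and -0.653 or lower in the other samples. The passing members and the list counts are also given without the 3 samples above 1, and those fits keep oxaliplatin 3. In bulk tissue fewer cells of a type and less RNA per cell cannot be told apart. The part of cell shares in the changes below was not tested beyond the fits named.

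Fkbp5 had the largest fold change of the members. It lies on chromosome 17 from 28399094 to 28517527 on the minus strand (GENCODE M21 on GRCm38, matched by symbol, as for all members). Its normalized counts were 724, 445, 494, 872 and 559 in oxaliplatin samples 1 to 5, against 105, 191, 141 and 332 in vehicle samples 1 to 4. The lowest oxaliplatin sample lay above the highest vehicle sample, and vehicle 4 stood highest in its group. Means were 619 ± 177 in oxaliplatin hearts and 192 ± 99.5 in vehicle hearts (SD, n = 5 and n = 4), a log2 fold change of 1.77 with a standard error of 0.31 (limma adjusted p = 0.00465). Leaving out any 1 sample gave 1.53 to 2.08, with the call kept each time, and the value was 1.49 without the 3 atrial-rich samples (adjusted p = 0.00447).

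Tsc22d3 encodes GILZ, a leucine zipper protein through which glucocorticoids dampen inflammatory signalling. It lies on chromosome X from 140539528 to 140600659 on the minus strand. Normalized counts were 8364, 6332, 9317, 11098 and 8846 in oxaliplatin samples, against 4448, 6726, 5366 and 6435 in vehicle samples. Oxaliplatin 2 lay below vehicle 2 and vehicle 4, so the groups overlapped. The rise was 0.61 on the log2 scale with a standard error of 0.17 (limma adjusted p = 0.0287). It is close to the threshold: the adjusted p was 0.0643 without oxaliplatin 3, 0.0671 without oxaliplatin 4, 0.0583 without oxaliplatin 5, 0.0928 without vehicle 1, 0.0860 without vehicle 3 and 0.0514 without the 3 atrial-rich samples.

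Sgk1 is a kinase of ion transport and cell survival that can phosphorylate FoxO factors much as Akt does. It lies on chromosome 10 from 21882184 to 21999903 on the plus strand, and its palindrome is printed above. Normalized counts were 7529, 4840, 6431, 5568 and 6965 in oxaliplatin samples, against 1415, 4198, 5311 and 4205 in vehicle samples. Vehicle 1 was far below all others, while vehicle 3 lay above oxaliplatin 2. The log2 fold change was 0.87 with a standard error of 0.34 and did not pass (limma adjusted p = 0.128). Without vehicle 1 it was 0.45 (adjusted p = 0.103). Sgk1 passed without the 3 atrial-rich samples, vehicle 1 among them (0.62, adjusted p = 0.0263), and when the fit took the atrial score into account (0.99, adjusted p = 0.0188).

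Zbtb16 encodes PLZF, a zinc finger repressor known as a strongly glucocorticoid-induced gene. It lies on chromosome 9 from 48654297 to 48836222 on the minus strand. Normalized counts were 1599, 1535, 1465, 1963 and 2180 in oxaliplatin samples, against 557, 1019, 1453 and 1764 in vehicle samples. The vehicle samples spread over 3.17-fold and the oxaliplatin samples over 1.49-fold, and vehicle 4 lay within the oxaliplatin range. Its log2 fold change of 0.65, with a standard error of 0.29, did not pass (limma adjusted p = 0.173), and it was 0.33 without vehicle 1 (adjusted p = 0.295).

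The Krüppel-like factors Klf9 and Klf15, which the receptor induces directly in many tissues, had log2 fold changes close to 0. Klf9, on chromosome 19 from 23141226 to 23168134 on the plus strand, had 2595, 2484, 2389, 3236 and 2338 normalized counts in oxaliplatin samples, against 2209, 2942, 2721 and 3266 in vehicle samples. The groups overlapped over nearly their whole range, with a log2 fold change of -0.09 and a standard error of 0.14 (limma adjusted p = 0.702). Klf15 regulates amino acid and lipid use in heart and lies on chromosome 6 from 90462576 to 90475238 on the plus strand. It had 406, 360, 338, 419 and 561 normalized counts in oxaliplatin samples, against 348, 441, 376 and 793 in vehicle samples. Vehicle 4 stood above all others. Its log2 fold change was -0.17 with a standard error of 0.23 (limma adjusted p = 0.658), and 0.09 without vehicle 4 (adjusted p = 0.782).

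Pik3ip1 had the smallest p of the members and fell. Its product is a membrane protein that binds and inhibits PI3K, upstream of Akt and FoxO. The gene lies on chromosome 11 from 3330401 to 3342971 on the plus strand. Normalized counts were 950, 919, 884, 779 and 900 in oxaliplatin samples, against 1468, 1670, 1227 and 1549 in vehicle samples. Every oxaliplatin sample lay below every vehicle sample, with little spread in the treated group. Means were 886 ± 65.1 in oxaliplatin hearts and 1478 ± 187 in vehicle hearts (SD, n = 5 and n = 4), a log2 fold change of -0.73 with a standard error of 0.11 (limma adjusted p = 0.00174). It passed under each of the 26 alternatives, at -0.82 to -0.64, and stood at -0.69 without the 3 atrial-rich samples (adjusted p = 0.0111).

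Foxo1, on chromosome 3 from 52268336 to 52353221 on the plus strand, encodes a FoxO factor that insulin signalling restrains. Normalized counts were 289, 490, 441, 522 and 330 in oxaliplatin samples, against 347, 363, 386 and 536 in vehicle samples. The groups overlapped throughout, with 2 oxaliplatin samples below and 3 above the 3 lower vehicle samples. The log2 fold change was 0.01 with a standard error of 0.19 (limma adjusted p = 0.987), and its sign varied with the sample left out, from -0.08 to 0.15.

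The 2 muscle ubiquitin ligases among the members differed in outcome. Fbxo32, or atrogin-1, is the substrate-binding part of a ligase that marks muscle proteins for the proteasome, and it lies on chromosome 15 from 58175879 to 58214932 on the minus strand. Its normalized counts were 1766, 1609, 1231, 1662 and 1436 in oxaliplatin samples, against 2113, 2411, 2031 and 2721 in vehicle samples. All oxaliplatin samples were lower than all vehicle samples. Fbxo32 fell by 0.59 on the log2 scale with a standard error of 0.13 (limma adjusted p = 0.010). It kept the call with any 1 sample left out, at -0.65 to -0.51, and without the 3 atrial-rich samples, at -0.70.

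Trim63, or MuRF1, a RING-finger ligase of the sarcomere, lies on chromosome 4 from 134315120 to 134329629 on the plus strand. It had 9403, 4079, 4430, 6275 and 6909 normalized counts in oxaliplatin samples, against 6678, 6914, 6014 and 6057 in vehicle samples. Vehicle values lay close together, within 1.15-fold, and oxaliplatin values spread over 2.31-fold, with oxaliplatin 1 above and oxaliplatin 2 and 3 below every vehicle sample. The log2 fold change of -0.11, with a standard error of 0.21, did not pass (limma adjusted p = 0.772). The difference between the fold changes of Fbxo32 and Trim63 was not tested.

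**Figure D2:**
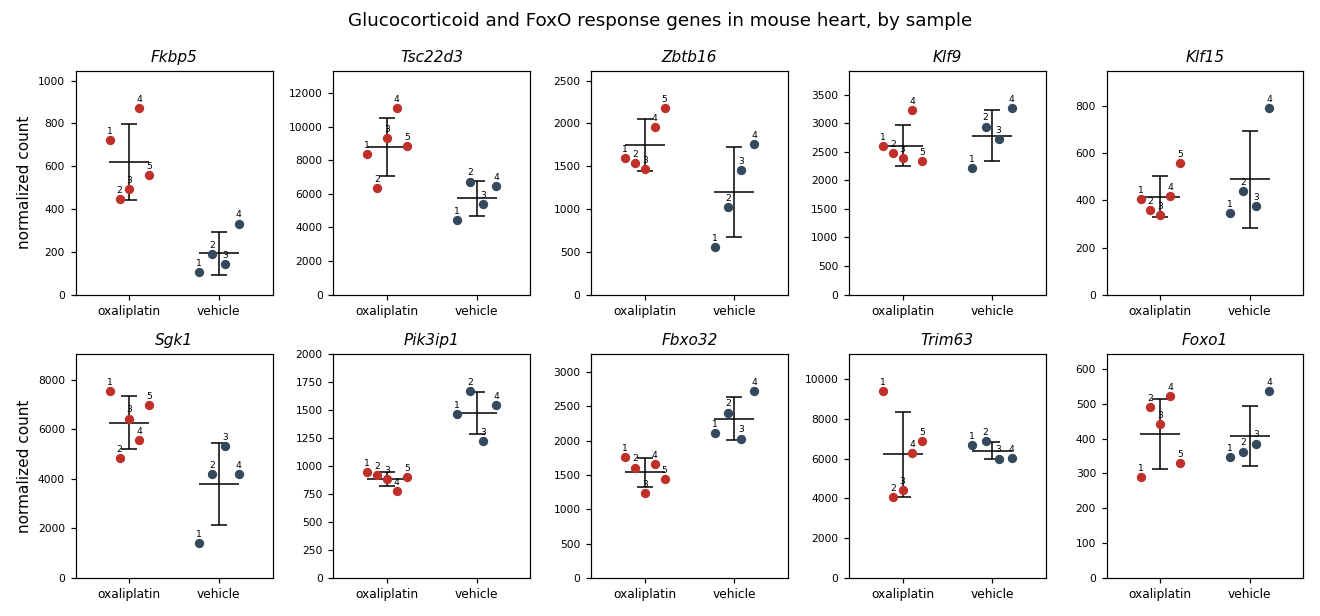
Normalized counts of the 10 members in each sample (numbered dots), with oxaliplatin left and vehicle right and the mean and SD of each group. Fkbp5 and, on the low side, Pik3ip1 and Fbxo32 have groups that do not overlap. Vehicle 1 lies at the bottom of its group for 7 members, and the share over all genes was not computed.

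Within the groups, the same samples recurred at the ends of the order. How often each sample stood at an end over all genes was not computed. These counts are therefore not read as particular to the members. Vehicle 1 was the lowest vehicle sample for 7 of 10 members, namely Fkbp5, Tsc22d3, Zbtb16, Klf9, Klf15, Sgk1 and Foxo1. Vehicle 4 was the highest for 6, namely Fkbp5, Zbtb16, Klf9, Klf15, Fbxo32 and Foxo1. Among oxaliplatin samples, oxaliplatin 4 was highest for Fkbp5, Tsc22d3, Klf9 and Foxo1, and oxaliplatin 1 for Sgk1, Pik3ip1, Fbxo32 and Trim63. Vehicle 1 also had the highest atrial score of its group, and its part in these low values was not tested.

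The receptor and its partners gave a second set of values. Of 14 measured genes of receptor, chaperone, cofactor and steroid handling, 4 fell and 0 rose in limma (0 rose with voom as well, and 2 were higher at an unadjusted p under 0.05), with a list median of -0.24, where 5.03% of all genes fell. The count of 4 was 1 or 2 under several other settings given further on. Fkbp4, the immunophilin that alternates with Fkbp5 on the receptor, had 6741, 6652, 6363, 4654 and 6996 normalized counts in oxaliplatin samples, against 11803, 12374, 14219 and 13487 in vehicle samples. Its groups lay far apart, and oxaliplatin 4, the sample highest in Fkbp5, was lowest in Fkbp4. The log2 fold change was -1.06 with a standard error of 0.14 (limma adjusted p = 8.39e-04), and Fkbp4 passed under each of the 26 alternatives, at -1.12 to -0.95.

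Fkbp5 and Fkbp4 thus moved in opposite directions. Fkbp5 stood at 10.7, 6.69, 7.76, 18.7 and 7.99 normalized counts per 100 of Fkbp4 in oxaliplatin samples, against 0.891, 1.54, 0.991 and 2.46 in vehicle samples. This ratio is not corrected for gene length, so it describes the difference between samples and not the amounts of the 2 transcripts. The groups did not overlap, and the ratio is built from 2 changes already given.

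Hsp90ab1, the constitutive cytosolic Hsp90, had 29529, 35999, 26904, 27280 and 25642 normalized counts in oxaliplatin samples, against 37004, 37662, 47754 and 45643 in vehicle samples. It fell by 0.53 (limma adjusted p = 0.0236), and lost the call under 10 of 26 alternatives, with adjusted p from 0.00675 to 0.211 over all 26. Among those 10 were quantile normalization (-0.39, adjusted p = 0.121), the removal of any 1 of 5 samples and the replicate block (-0.49, adjusted p = 0.104). The block fit also leaves out oxaliplatin 5, whose removal alone gave the same fold change (-0.49, adjusted p = 0.0625). Nr3c1, the glucocorticoid receptor gene, had 736, 1044, 1042, 914 and 893 normalized counts in oxaliplatin samples, against 1263, 1071, 1181 and 1365 in vehicle samples. The groups just failed to touch, at 1044 and 1071, and Nr3c1 fell by 0.40 (limma adjusted p = 0.0478). That call was lost under 18 of 26 alternatives, with adjusted p from 0.0121 to 0.457. Nr3c2, the mineralocorticoid receptor gene, had 87.2, 276, 157, 144 and 145 normalized counts in oxaliplatin samples, against 284, 309, 206 and 317 in vehicle samples. It fell by 0.86 (limma adjusted p = 0.0494), and lost the call under 14 of 26 alternatives. Hsd11b1, the enzyme that regenerates active hormone inside cells, averaged 929 ± 262 in oxaliplatin hearts and 630 ± 105 in vehicle hearts (SD, n = 5 and n = 4), and did not pass (0.51, limma adjusted p = 0.154).

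**Figure D3:**
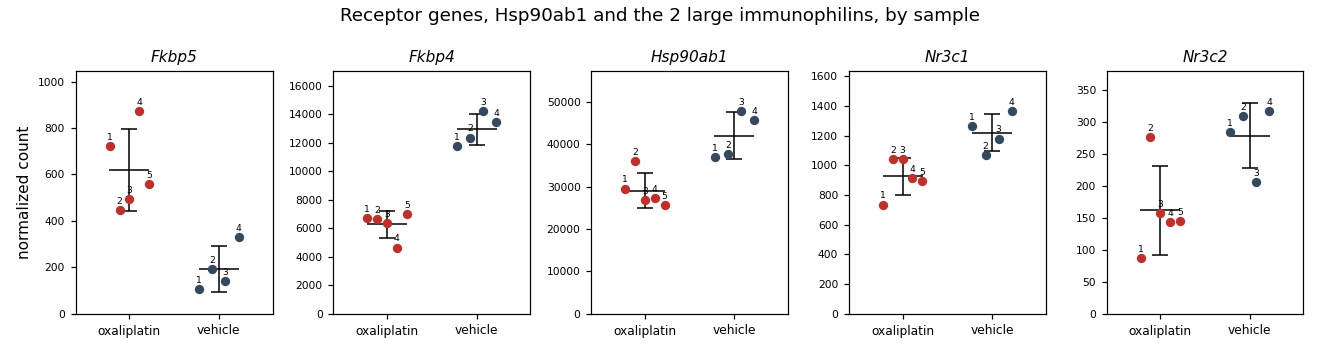
Normalized counts of Fkbp5, Fkbp4, Hsp90ab1, Nr3c1 and Nr3c2 in each sample (numbered dots), with oxaliplatin left and vehicle right and the mean and SD of each group. All oxaliplatin samples lie above the vehicle samples for Fkbp5 and below them for Fkbp4.

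Other genes that glucocorticoids induce rose in part. Of 25 measured, 8 rose, 1 fell and 16 did not pass, beside 9.23% higher and 5.03% lower of all genes, with a list median of 0.52. With the clock score as a covariate 1 rose, and with the erythroid score 3, where 252 and 799 of all genes passed higher. The erythroid score, made as the atrial score was, ran from 0.623 to 1.65 in vehicle samples. In oxaliplatin samples it ran from -2.88 to 1.90 and was negative in all but oxaliplatin 3. Fits with it therefore cannot fully tell its part from that of treatment. The rises of Cdkn1a, Mt1 and Mt2 were known when the list was made, and Cdkn1a is also a p53 target and the metallothioneins also respond to metals. Acer2, an alkaline ceramidase, had 3454, 1057, 2403, 3029 and 3190 normalized counts in oxaliplatin samples, against 564, 451, 431 and 525 in vehicle samples, a log2 fold change of 2.31 (limma adjusted p = 0.00188). The groups were well separated, with oxaliplatin 2 the lowest of the treated samples. Mt2 rose by 2.20, Cdkn1a by 3.04 and Mt1 by 1.30 (limma adjusted p = 0.00239, 0.00480 and 0.00923), and in each of the 3 oxaliplatin 2 was also the lowest treated sample. Cdkn1a had 7913, 1790, 3564, 4823 and 6581 normalized counts in oxaliplatin samples, which ranks them as Acer2 does. Whether Acer2 rose through the hormone or through another inducer was not tested.

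The remaining risers of that list were Angptl4, an inhibitor of lipoprotein lipase (1.74), the sulfotransferase Sult1a1 (1.12), the phagocytic receptor Mertk (0.59) and Tat. Tat, the tyrosine aminotransferase by which liver responds to the hormone, was barely measured. It had 17.9, 71.3, 20.1, 65.8 and 28.7 normalized counts in oxaliplatin samples, against 17.9, 0, 0 and 3.03 in vehicle samples (limma adjusted p = 0.0173), so the highest vehicle sample equalled the lowest oxaliplatin sample and its fold is not given. Cdkn1c, the cell cycle inhibitor p57, fell by 0.86 (limma adjusted p = 0.0450). Per1, a clock gene with a well-known receptor site, averaged 499 ± 120 in oxaliplatin hearts and 597 ± 349 in vehicle hearts (SD, n = 5 and n = 4), at a log2 fold change of -0.14 (limma adjusted p = 0.809), and vehicle 4 was again the highest sample at 1111. Ddit4, an inhibitor of mTOR, had a log2 fold change of 1.27 (adjusted p = 0.180), Dusp1 one of -0.84 (0.416) and Glul, glutamine synthetase, one of -0.05 (0.849), and none of these 3 passed. Hsd11b1, Per1, Ddit4, Dusp1 and Glul, and the passing genes past the 4 of smallest p in this list and the next lists, were chosen after their values were seen.

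Of 23 measured genes of insulin and PI3K signalling, 1 rose, 2 fell and 20 did not pass, with a list median of 0.04. Over all genes 9.23% passed higher and 5.03% lower. Ywhaz, a 14-3-3 protein of the kind that holds phosphorylated FoxO in the cytoplasm, had 7497, 5375, 6515, 7091 and 7470 normalized counts in oxaliplatin samples, against 4895, 4748, 4509 and 4241 in vehicle samples. The groups did not overlap, and it rose by 0.55 (limma adjusted p = 0.00961). Inppl1, or SHIP2, an inositol phosphatase that removes the PI3K product, had 404, 506, 425, 490 and 478 normalized counts in oxaliplatin samples, against 702, 620, 802 and 818 in vehicle samples. It fell by 0.67 (limma adjusted p = 0.00415). Grb14, an adaptor that restrains the insulin receptor, fell by 0.40 (limma adjusted p = 0.0436) and lost the call under 14 of 26 alternatives.

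Among FoxO factors and their other known targets, 1 of 28 measured rose, 4 fell and 23 did not pass, with a list median of -0.17. Over all genes 9.23% passed higher and 5.03% lower. The fall of Gadd45a was known when the list was made. Gadd45a, a growth arrest gene, had 136, 100, 88.4, 82.8 and 99.0 normalized counts in oxaliplatin samples, against 203, 258, 231 and 212 in vehicle samples (-1.17, limma adjusted p = 0.00159). Cited2, a brake on CBP and p300 coactivators, fell by 0.90, Bcl2l11, the cell death protein Bim, by 0.74 and Foxo4 itself by 0.63 (limma adjusted p = 0.00521, 0.0168 and 0.0197). Bcl2l11 lost the call under 5 of 26 alternatives and Foxo4 under 7. In each of these 4 genes the highest oxaliplatin sample was below the lowest vehicle sample, which genes picked for passing lower are likely to show. Over the whole list this held for 4 of 28 measured genes, beside 5.93% of all genes. Ctsl, the lysosomal protease cathepsin L, rose by 0.57 (limma adjusted p = 0.0469).

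Other genes of muscle ubiquitin ligation and protein breakdown were examined beside Fbxo32. Of 24 measured, 15 had a negative log2 fold change, 0 passed in limma and 0 with voom, 3 were lower and 0 higher at an unadjusted p under 0.05, and the list median was -0.11. Over all genes 9.23% passed higher and 5.03% lower. The difference of the listed genes from Fbxo32 was not tested. The deubiquitinase Usp19 had the smallest p, at a log2 fold change of -0.41 (limma adjusted p = 0.106), followed by the F-box protein Fbxo31 at -0.43 (0.133). Quantile normalization and scaling to the total without mitochondrially encoded genes each gave 1 higher gene, where 1151 and 1464 of all genes passed higher.

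**Figure D4:**
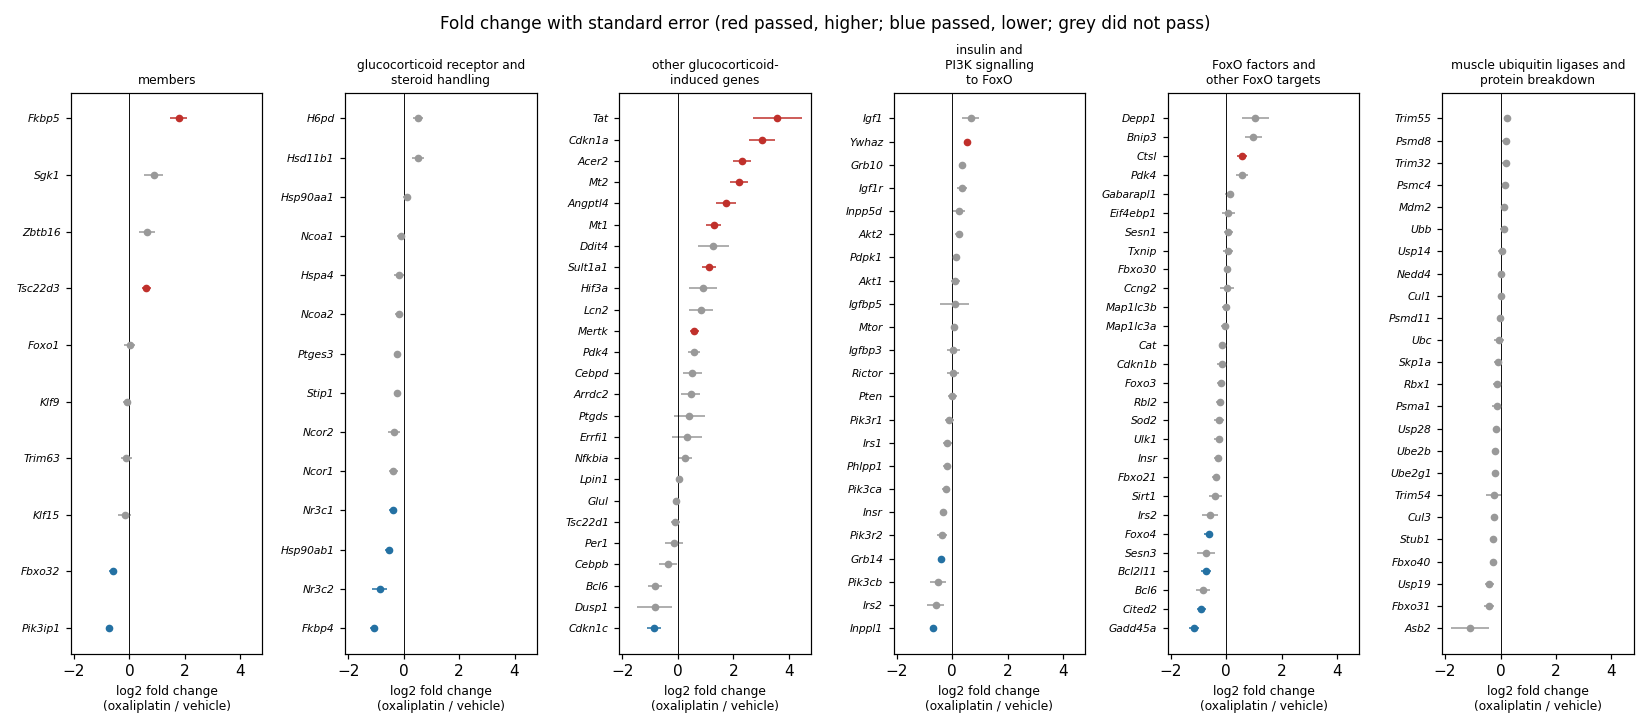
Log2 fold change (oxaliplatin over vehicle) with its standard error for each measured gene of 6 lists, red where it passed higher, blue where it passed lower and grey where it did not pass. The list of other glucocorticoid-induced genes holds 8 rises of 25, and no gene passes in the list of muscle ubiquitin ligases and protein breakdown (0 of 24). Over all genes 9.23% passed higher and 5.03% lower.

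These counts moved with the setting. Of the 14 genes of receptor and steroid handling, 1 fell after scaling to the total without mitochondrially encoded genes, 1 with the clock score as a covariate, 2 with the erythroid score and 2 after quantile normalization, and 1 rose and 3 fell without the 3 atrial-rich samples. Of the 25 other glucocorticoid-induced genes, 7 rose and 2 fell without the atrial-rich samples. Of the 28 FoxO factors and targets, 1 fell with either the clock or the erythroid score, 2 rose and 2 fell on the scaling without mitochondrially encoded genes, and 3 rose and 4 fell without the atrial-rich samples.

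Of the 23 genes of insulin and PI3K signalling, 0 passed in limma with the clock score (3 higher and 3 lower at an unadjusted p under 0.05), 2 rose and 1 fell with the erythroid score, and 2 rose and 1 fell without the atrial-rich samples. Of the 24 ligase and protein breakdown genes, 0 passed in limma without the atrial-rich samples, with 3 lower at an unadjusted p under 0.05.

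Near relatives of the members showed whether a change went with the family. Of 31 measured relatives, 2 rose, 2 fell and 27 did not pass, beside 9.23% higher and 5.03% lower of all genes. The list median was 0.04. Without the 3 atrial-rich samples 3 rose and 2 fell, and on the scaling without mitochondrially encoded genes 5 rose and 1 fell. Over all genes 1109 rose and 490 fell in the first of these fits, and 1464 and 388 in the second. Fkbp14, an isomerase of the endoplasmic reticulum, had 596, 296, 422, 564 and 654 normalized counts in oxaliplatin samples, against 238, 204, 194 and 173 in vehicle samples (1.27, limma adjusted p = 0.00249). Klf10, a factor known as induced by TGF-beta, rose by 1.09 (limma adjusted p = 0.00886). Tsc22d4, a relative of Tsc22d3, had 1854, 1873, 1570, 1511 and 2064 normalized counts in oxaliplatin samples, against 2374, 2520, 2928 and 2609 in vehicle samples. It fell by 0.56 (limma adjusted p = 0.00809), opposite to the rise of Tsc22d3, and Foxo4, given above, was the other relative that fell.

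Clock genes were examined because the hormone and several members follow the time of day, and the labels give no collection time. Of 16 measured, 3 fell and 0 rose in limma (0 also rose with voom, and 1 was higher at an unadjusted p under 0.05), with a list median of -0.27. Over all genes 9.23% passed higher and 5.03% lower. Those that fell numbered 6 without the 3 atrial-rich samples, where 1 rose, and 6 with the atrial score, but 1 with the erythroid score and 1 on the scaling without mitochondrially encoded genes. Dbp, a clock output factor, had 470, 875, 572, 408 and 446 normalized counts in oxaliplatin samples, against 860, 930, 1063 and 1219 in vehicle samples (-0.92, limma adjusted p = 0.010). Nr1d2 fell by 0.70 and Tef by 0.44 (limma adjusted p = 0.0311 and 0.0496), calls lost under 11 of 26 alternatives for Nr1d2 and under 16 for Tef. A clock score, the leading principal component of these genes signed so that Dbp is positive, ran from -2.80 to 1.07 in oxaliplatin samples and from 0.0665 to 1.69 in vehicle samples. With it as a covariate the fold changes of Fkbp5, Tsc22d3 and Fbxo32 were 1.67, 0.54 and -0.65 and none passed (limma adjusted p = 0.0754, 0.173 and 0.0608). Their standard errors were 0.447, 0.225 and 0.173, against 0.31, 0.168 and 0.131 without the score. In the same fit Pik3ip1 passed (-0.74, 0.0279) and Trim63 passed at -0.68 (0.0320). The score differs between the groups, so this fit cannot tell its part from that of treatment. Among all tested genes 252 passed higher and 146 lower with the score, against 1272 and 694 without it.

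Over all 9 samples, the genes outside the members whose log2 values followed a passing member most closely were named as a description. For Fkbp5 they were Scml4, a polycomb-group gene, with Pearson r = 0.981 and Bok, a relative of Bcl2, with r = 0.980. For Tsc22d3 they were Gja4, the connexin of arterial endothelium, with r = 0.982 and the predicted gene Gm4735 with r = 0.975. Pik3ip1 was followed by Ogdh, a subunit of a TCA cycle enzyme (r = 0.975), and Synj2, an inositol phosphatase (r = 0.968), and Fbxo32 by Gaa, the lysosomal alpha-glucosidase (r = 0.949), and Ccser2 (r = 0.941). These r values include the difference between groups, and they were the largest among all tested genes outside the members, over 9 samples in which all genes share the libraries. After subtraction of the group means r was 0.916 for Scml4, 0.916 for Bok, 0.962 for Gja4, 0.946 for Gm4735, 0.881 for Ogdh, 0.814 for Synj2, 0.833 for Gaa and 0.757 for Ccser2. Gja4 had 1791, 1279, 1854, 2729 and 1939 normalized counts in oxaliplatin samples, against 827, 1187, 888 and 1190 in vehicle samples, with the same highest and lowest treated samples as Tsc22d3. Scml4, Bok, Gja4, Gm4735, Synj2 and Ccser2 passed in limma in the direction of their member, and Ogdh and Gaa did not (adjusted p = 0.0717 and 0.147). Because the genes were chosen by an r that includes the group difference, these calls follow largely from the choice and are no separate result.

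**Figure D5:**
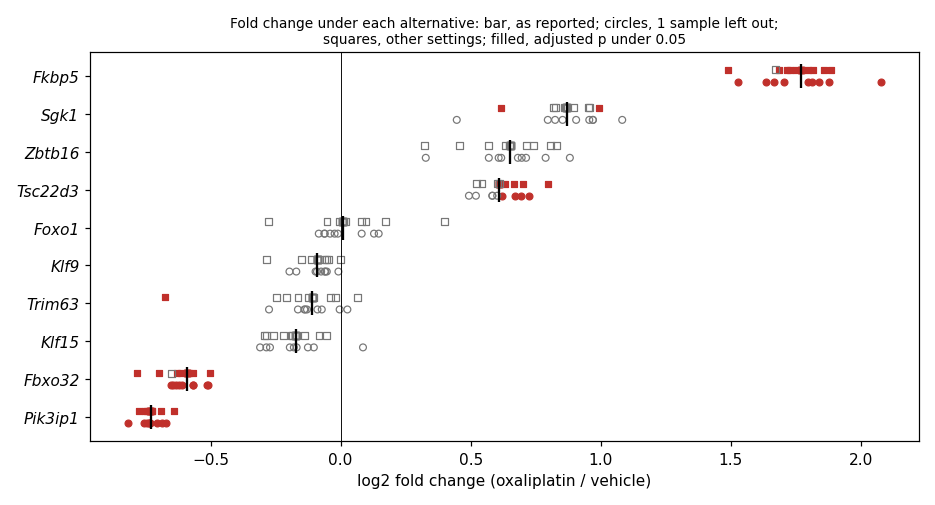
Log2 fold change (oxaliplatin over vehicle) of each member as reported (bar), with 1 sample left out (circles) and under the other settings (squares), filled where the adjusted p was under 0.05. Pik3ip1 is filled throughout, at -0.82 to -0.64, and Fkbp5 has 1 open square, the fit with the clock score.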

How the data were processed

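For each gene and sample the authors deposited a signal, namely normalized counts per the file headers. The submitters' processing notes name DESeq2, Partek and STAR 2.5.1a, with no roles, and libraries used a SMARTer kit per the labels. The sources used here do not give genome build, gene models or strandedness, so overlapping or antisense genes cannot be told apart. A log-scale test was used because the values are named as normalized counts. Low values lay on a step per sample, but only 73.1% to 75.9% of the values examined were within 0.02 of a whole read. Estimated reads are the signal divided by that step.

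Groups came from the titles. limma 3.58.1 in R 4.3.3 (trend and robust) was fitted to log2(normalized count + 1), keeping genes whose mean reached 10. Such fold changes understate low genes. The fit was tested on simulated data.

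The rule named all members, up to 4 passing genes of smallest p per list (2 where none passed), and the 2 genes of highest r to each passing member. Members and lists were chosen with earlier results of these data known. Alternatives covered pseudocount, filter, scaling, moderation, weights, threshold, replicate block, covariates and left-out samples. Removal of the 3 atrial-rich samples and voom on estimated reads were added after seeing the data.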

Additional observations from a re-analysis of the deposited data

Results flagged for a closer look

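In 86 groups of samples examined, 2 for each of 43 named genes, 3 had a sample far from the others, and chance gives about 1 in 20. Klf9 in oxaliplatin 4 had 3236 normalized counts, against 2595 in the next oxaliplatin sample. Fkbp4 in oxaliplatin 4 had 4654, below the next lowest at 6363 and in the same sample that was highest in Fkbp5. Usp19 in vehicle 4 had 1075, against 668 in the next vehicle sample.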

How the results depend on the processing

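Members that rose numbered 2 as reported, 1 without trend and robust moderation, 1 at an adjusted p under 0.01 and 0 with the clock score as a covariate (2 at an unadjusted p under 0.05 there, and 2 rose with voom without that covariate). Members that fell numbered 2 as reported and 1 at an adjusted p under 0.01. With 1 sample left out, 1 to 2 members rose. Of 169 companion genes, 12 rose as reported, 21 with array weights, 7 at an adjusted p under 0.01, 19 at one under 0.1, 20 with the atrial score, 6 with the erythroid score and 2 with the clock score as a covariate. Companion genes that fell numbered 15 as reported, 7 after scaling to the total without mitochondrially encoded genes, 9 without trend and robust moderation, 5 at an adjusted p under 0.01, 6 with the erythroid score, 2 with the clock score and 27 without the 3 atrial-rich samples. The 27 include 10 immediate early genes, described under other observations. With 1 sample left out 9 to 21 rose (21 without oxaliplatin 2) and 7 to 18 fell (9 without oxaliplatin 3, 8 without oxaliplatin 4, 9 without vehicle 2, 7 without vehicle 3 and 8 without vehicle 4). Deviations from group means correlated at -0.273, -0.0636, -0.0935 and 0.25 for equal replicate numbers 1 to 4, and at -0.45 to 0.422 for unequal numbers. Equal numbers thus did not stand out, and whether they share a batch or a collection was not tested. With the replicate number as a block, 1 member rose (Tsc22d3 at a limma adjusted p of 0.0551), 2 fell and 9 companion genes fell. The block fit also leaves out oxaliplatin 5. Leaving out oxaliplatin 5 alone gave 1 member that rose (Tsc22d3 at a limma adjusted p of 0.0583) and 10 companion genes that fell. The effect of the block and of the missing sample cannot be told apart by the calls. Signs that turned belonged to members that had not passed: Foxo1 (-0.0057 after quantile normalization, -0.0526 with the atrial score, -0.28 without the atrial-rich samples, and -0.0842 to 0.15 with 1 sample left out), Trim63 (0.0642 without the atrial-rich samples, and -0.28 to 0.0257) and Klf15 (-0.31 to 0.0857). Over 43 named genes and 26 settings, 943 of 1117 values kept direction and side of the threshold, 146 lost the call, 16 gained it and 12 turned. Calls over all genes moved as well, from 1272 higher and 694 lower as reported. They numbered 1975 and 1566 with array weights, 1641 and 1053 with the atrial score, and 562 and 195 at an adjusted p under 0.01. The causes were not tested. Higher genes made up 64.7% of all that passed, 54.4% after quantile normalization and 79.0% after scaling to the total without mitochondrially encoded genes. With 5 and 4 samples, a p that misses the threshold does not show that a gene did not change.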

Other observations

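Immediate early genes, which respond within minutes to stress and handling, had a list median of -0.61, and 0 of 18 passed in limma (0 with voom, and 1 higher and 2 lower at an unadjusted p under 0.05). Without the 3 atrial-rich samples, a set chosen after seeing the data, 10 of 18 fell, at a median of -1.35. The removed samples include vehicle 1, the lowest vehicle sample for Fos (31.1) and Egr1 (141). They also include oxaliplatin 2, the highest treated sample for both (1466 and 2380). The 10 falls thus depend on which samples were removed and are not read as a separate result. Of all 13743 genes tested in that fit, 490 fell. Jun had 613, 675, 736, 460 and 1145 normalized counts in oxaliplatin samples, against 723, 2098, 1570 and 1878 in vehicle samples, so vehicle 1 lay within the treated range. The phosphatase Dusp1, which glucocorticoids and stress both induce, had 473, 1031, 848, 694 and 931 in oxaliplatin samples, against 355, 1590, 1806 and 3560 in vehicle samples, with vehicle 1 lowest of all. Errfi1, a feedback inhibitor of EGF receptors, had 165 in vehicle 1, against 611, 671 and 1140 in the other vehicle samples and 392 to 979 in oxaliplatin samples. Klf4 had 351 in vehicle 1, against 793, 882 and 884 in the other vehicle samples and 678 to 823 in oxaliplatin samples. Vehicle 1 was thus low in these 4 genes and in the 7 members named in the report, and whether collection or dissection differed for it was not tested. How often vehicle 1 was lowest over all genes was not computed. Dusp1, Errfi1 and Klf4 were chosen after their values were seen.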
